A study of Mus musculus with 21 samples.

Results

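Branched-chain amino acid breakdown was followed through 10 genes of the pathway, Bcat2, Bckdha, Bckdhb, Bckdk, Ppm1k, Ivd, Mccc1, Acadsb, Hibadh and Aldh6a1, out of 46071 genes in the count table. They are core genes of the pathway, matched by gene symbol. No measured value enters that rule, but the members were chosen with earlier results of these data known. All 10 passed the filter on low counts, which kept 12658 genes.

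RNA sequencing was done on mouse muscle, powdered quadriceps and gastrocnemius combined, from mice that lack the transcription factors FoxO1, FoxO3 and FoxO4 in muscle and from floxed littermates, and part of the mice were made diabetic with streptozotocin (STZ), which kills the beta cells that make insulin. The 21 libraries formed 4 groups: STZ TKO (triple knockout given STZ, 6 libraries), STZ floxed (triple floxed mice without Cre given STZ, 5), TKO (6) and floxed (4), and the groups without STZ received citrate buffer. The knockout was made by Cre under the ACTA1 promoter, which is active in skeletal muscle fibres and not in the other cells of the tissue, and the mice were on a mixed background of C57Blk6, C57Blk6J and 129 strains. STZ was injected intraperitoneally at 150 mg/kg after an overnight fast, females received 75 mg/kg more on day 3, and mice were used only if random blood glucose stayed above 300 mg/dL. Neither sex nor age is labelled per library. Whether each library is from a different animal is not stated either, so a p-value here weighs only library-to-library spread, which may be technical. A library is called by the number in its title.

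Total counts ranged from 3586183 to 6234979 in STZ TKO, 3377613 to 7676700 in STZ floxed, 2951290 to 6014870 in TKO and 4176132 to 7687823 in floxed libraries. The targeted genes were checked on whole-gene counts: Foxo4 averaged 7.43 ± 2.7 CPM (library-scaled counts, SD, n = 6) in STZ TKO and 6.24 ± 1.52 (n = 6) in TKO libraries, against 190.2 ± 7.72 (n = 5) in STZ floxed and 159.6 ± 29.5 (n = 4) in floxed libraries. Foxo1 averaged 15.8 ± 5.61 CPM in STZ TKO and 14.6 ± 3.97 in TKO libraries, against 56.8 ± 21.1 in STZ floxed and 68.9 ± 30.6 in floxed libraries. Foxo3 was not lower in knockouts (log2 fold change 0.59 under STZ and 0.40 without, edgeR adjusted p = 0.148 and 0.616), and counts within its floxed exons were not analysed here. Summed CPM of 10 muscle fibre markers, among them Ckm and Acta1, was at least 65082 in every library, and none of the 10 was at 0 throughout.

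Leucine, isoleucine and valine are broken down largely in muscle, because the first step, removal of the amino group, is weak in liver. BCAT2, the mitochondrial aminotransferase, makes branched-chain keto acids, and the branched-chain keto acid dehydrogenase complex then commits them to oxidation. Its E1 part is made of an alpha subunit (BCKDHA) and a beta subunit (BCKDHB); the kinase BCKDK phosphorylates E1 and switches the complex off, and the phosphatase PPM1K switches it on again. After that step the chains part: IVD and the carboxylase subunit MCCC1 act on the leucine chain, ACADSB mainly on the isoleucine chain, HIBADH on the valine chain, and ALDH6A1 on the last valine intermediate as it becomes propionyl-CoA.

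Coordinates are on GRCm38 from GENCODE release M21. On chromosome 7 lie Bcat2 (chr7:45570153-45589711, plus strand), Bckdha (chr7:25629946-25658981, minus), Bckdk (chr7:127904082-127910221, plus) and Acadsb (chr7:131410601-131448944, plus). Hibadh (chr6:52546228-52640389) and Ppm1k (chr6:57506502-57535468) are on the minus strand of chromosome 6. The others are Bckdhb (chr9:83925145-84124240, plus), Ivd (chr2:118861954-118882909, plus), Mccc1 (chr3:35959312-36000678, minus) and Aldh6a1 (chr12:84430717-84451004, minus). All 10 are protein-coding. Exons of Bckdha overlap those of B3gnt8 on the opposite strand, and exons of Aldh6a1 overlap those of Bbof1; over all libraries B3gnt8 had 189 counts against 7400 for Bckdha, and Bbof1 had 251 against 19848 for Aldh6a1. Exons of Bcat2 share 622 bases with the antisense gene 0610005C13Rik, whose identifier is not in the count table. Those of Mccc1 share 198 bases with Mccc1os (21 counts against 4932) and 321 with the pseudogene B230207O21Rik (0 counts).

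The promoters of the 5 members that were lower in knockouts in the average over STZ are shown because these are the members that passed the test for the knockout. Each sequence runs 5′ to 3′ on the gene's strand, from 250 bases before to 50 bases after the start site, from RefSeq on GRCm38.p6. Capitals mark matches, on either strand, to GTAAACA, a FoxO motif, and to the letters CCACCC, a motif that Krüppel-like factors bind.
Acadsb (chr7:131410351-131410650, plus strand): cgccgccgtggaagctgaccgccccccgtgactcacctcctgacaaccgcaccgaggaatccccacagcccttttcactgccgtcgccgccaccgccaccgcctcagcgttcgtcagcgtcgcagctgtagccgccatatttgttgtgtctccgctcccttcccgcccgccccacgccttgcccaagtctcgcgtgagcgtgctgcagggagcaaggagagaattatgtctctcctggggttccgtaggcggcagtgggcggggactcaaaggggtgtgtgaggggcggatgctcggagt
Hibadh (chr6:52640251-52640550, minus strand): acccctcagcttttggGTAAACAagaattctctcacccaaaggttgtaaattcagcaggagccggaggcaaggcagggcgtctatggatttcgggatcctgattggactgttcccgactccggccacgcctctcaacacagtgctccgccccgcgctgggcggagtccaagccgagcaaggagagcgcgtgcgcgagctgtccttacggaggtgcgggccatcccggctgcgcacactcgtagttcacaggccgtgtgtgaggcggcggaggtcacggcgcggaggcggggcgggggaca
Aldh6a1 (chr12:84450975-84451274, minus strand): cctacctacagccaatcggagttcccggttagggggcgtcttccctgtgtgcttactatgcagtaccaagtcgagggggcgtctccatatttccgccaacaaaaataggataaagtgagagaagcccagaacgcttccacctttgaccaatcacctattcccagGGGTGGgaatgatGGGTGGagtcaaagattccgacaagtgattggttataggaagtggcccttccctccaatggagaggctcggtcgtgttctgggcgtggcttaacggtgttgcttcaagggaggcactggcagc
Ppm1k (chr6:57535438-57535737, minus strand): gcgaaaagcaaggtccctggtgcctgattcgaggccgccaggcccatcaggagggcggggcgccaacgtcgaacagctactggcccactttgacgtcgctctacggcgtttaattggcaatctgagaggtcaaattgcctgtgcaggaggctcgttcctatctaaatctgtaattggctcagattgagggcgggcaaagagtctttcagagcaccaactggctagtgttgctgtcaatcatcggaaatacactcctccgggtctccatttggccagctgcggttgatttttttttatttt
Bckdhb (chr9:83924887-83925186, plus strand): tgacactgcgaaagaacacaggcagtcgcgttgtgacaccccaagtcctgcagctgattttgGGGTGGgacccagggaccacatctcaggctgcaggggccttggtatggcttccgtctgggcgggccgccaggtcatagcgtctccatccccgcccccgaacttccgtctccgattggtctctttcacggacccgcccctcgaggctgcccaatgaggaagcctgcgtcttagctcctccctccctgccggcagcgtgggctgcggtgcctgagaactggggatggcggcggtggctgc
Of all 32851 promoters in the same table, 3.65% hold GTAAACA or its reverse complement TGTTTAC, 31.5% hold CCACCC or its reverse complement GGGTGG, and 4.72% hold AAGGTCA or TGACCTT, a motif of ERR and other nuclear receptors. GTAAACA was found in 1 of the 10 members' first listed promoters, that of Hibadh, starting at position -234 from the start site. CCACCC was found in 5 of the 10: as its reverse complement in Bcat2, Bckdhb (position -188) and Aldh6a1 (positions -86 and -73), and as written in Ivd and Mccc1. Acadsb and Ppm1k held none of the 3 motifs in this window, and AAGGTCA was in none of the 10. These are matches of letters and not measured binding sites.

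The summed level of the 10 members was lowest in STZ TKO libraries, at 713.6 ± 127 CPM (SD, n = 6), against 1005 ± 70.6 (n = 5) in STZ floxed, 847.5 ± 154 (n = 6) in TKO and 1117 ± 52.1 (n = 4) in floxed libraries. STZ TKO libraries ran from 569.4 to 901.7 CPM and STZ floxed libraries from 921.4 to 1102, so those groups did not overlap. TKO libraries ran from 539.6 to 942.7 CPM and floxed libraries from 1051 to 1161, again with no overlap. Per kilobase of the principal transcript (RPKM, TMM-scaled), Hibadh had the highest level in each group, 77.8 ± 33.3 in STZ TKO, 121.7 ± 16.8 in STZ floxed, 70.7 ± 11.2 in TKO and 109.4 ± 3.4 in floxed libraries. Ppm1k had the lowest, 2.78 ± 0.583, 4.3 ± 1.01, 3 ± 0.908 and 5.22 ± 1.88 RPKM in the same order of groups, and Bckdhb the next lowest. The ranks depended on the length used: per kilobase of all annotated exons, Hibadh had 19.6 RPKM in floxed libraries and stood at rank 5, Bckdha with 44.9 RPKM stood at rank 1, and Ppm1k (4.82) and Mccc1 (4.86) were lowest and differed by less than the spread between libraries.

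**Figure D1:**
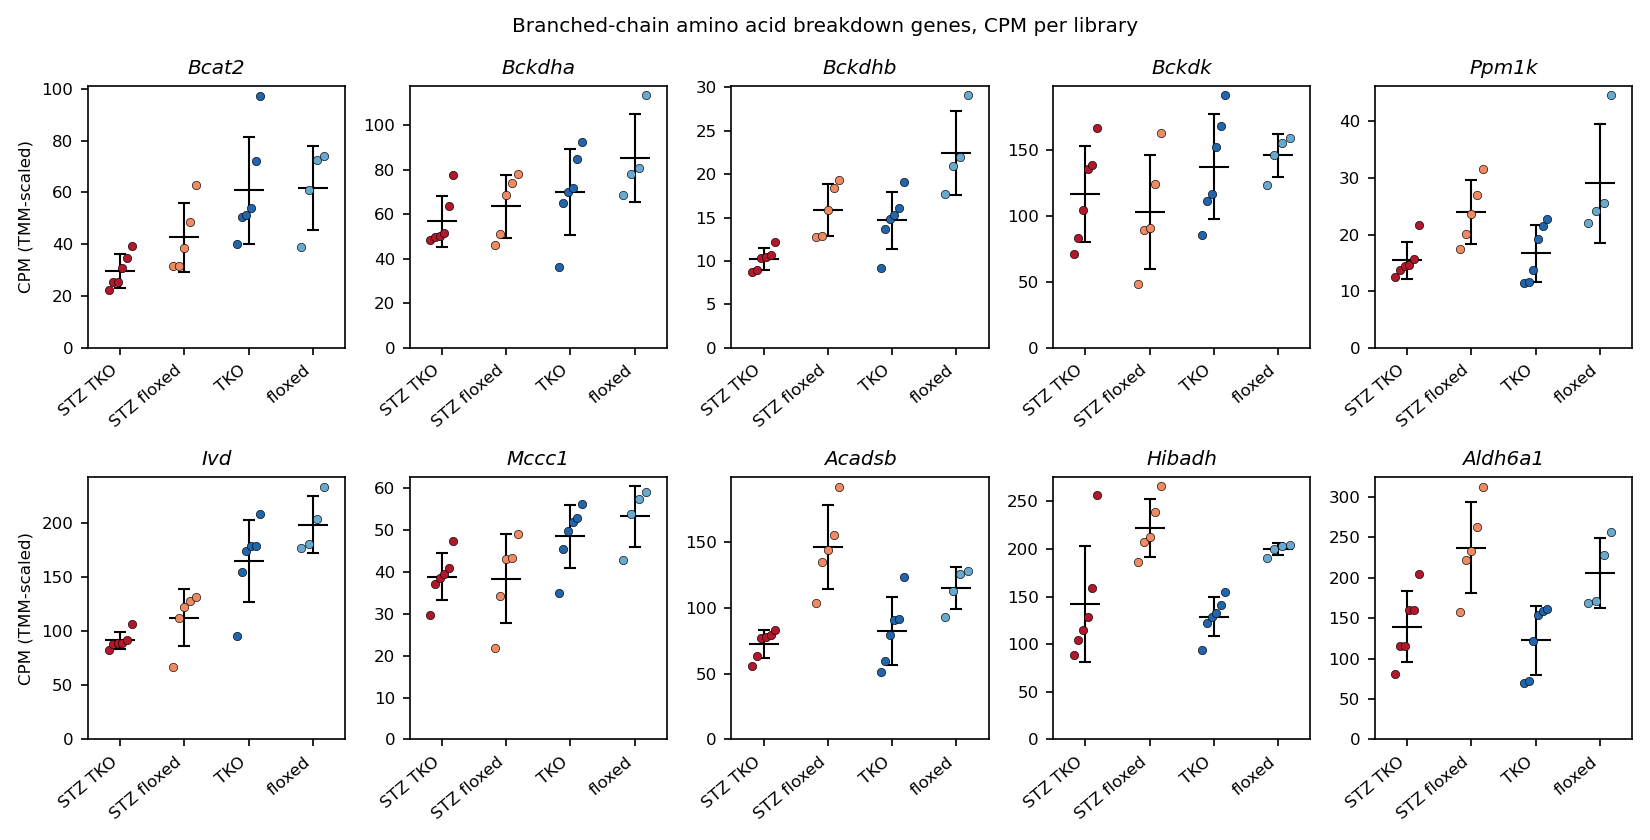
CPM of each member in each library (points), with mean and SD as bars, in STZ TKO (6 libraries), STZ floxed (5), TKO (6) and floxed (4); each axis starts at 0. The means of Acadsb, Hibadh, Aldh6a1, Ppm1k and Bckdhb are lower in the knockouts than in floxed libraries of the same treatment, and the mean of Ivd is lower with STZ in either genotype.

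Averaged over both treatments, Acadsb, Hibadh and Aldh6a1, enzymes of the isoleucine and valine branches, each fell in knockouts, to fitted levels 0.593 to 0.642 times those of floxed muscle, and the phosphatase Ppm1k and the E1 subunit Bckdhb fell as well. These 5 of the 10 members passed the test in this average (edgeR quasi-likelihood test, adjusted p under 0.05 over 12658 genes) and all 5 were lower, where 9.8% of all tested genes passed and 4.23% were lower. The members' median log2 fold change was -0.45, against 0.02 over all tested genes. A change in bulk muscle RNA can come from fewer cells of a type or from less RNA per cell, which cannot be told apart. Macrophage markers were higher in the knockouts: 13 of 14 passed, where 705 of 12658 tested genes were called higher. With their level as a covariate 0 of 10 members passed in this average by edgeR, with 2 at an unadjusted p under 0.05. That level itself differed with genotype (mean centred log2 CPM 0.63 in STZ TKO and 0.66 in TKO, -0.84 in STZ floxed and -0.90 in floxed libraries). Macrophage level and genotype therefore cannot be fully told apart in that fit.

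Acadsb, short/branched-chain acyl-CoA dehydrogenase, had 56.1, 77.5 and 83.4 CPM (lowest, median and highest) in STZ TKO libraries, against 104, 144, 156, 192 and 135 CPM in STZ floxed libraries 3, 7, 14, 17 and 21. Every STZ TKO library lay below every STZ floxed library. In the TKO group Acadsb had 51.2, 85 and 123 CPM, against 92.9, 113, 128 and 126 CPM in floxed libraries 1, 5, 9 and 19, and the groups overlapped. Under STZ the log2 fold change was -1.01 ± 0.20 (SE, 95% interval -1.42 to -0.60, edgeR adjusted p = 0.00382), without STZ it was -0.48 ± 0.21 (adjusted p = 0.356), and in the average it was -0.74 ± 0.14 (adjusted p = 0.00179). Acadsb was the member with the lowest p of an interaction, and the difference between its knockout effects, -0.53 (95% interval -1.13 to 0.07), did not pass (edgeR adjusted p = 0.9996).

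Hibadh, the dehydrogenase of 3-hydroxyisobutyrate, had 88.8, 122 and 256 CPM (lowest, median and highest) in STZ TKO libraries, against 239, 266, 212, 207 and 186 CPM in STZ floxed libraries 3, 7, 14, 17 and 21. The highest of these STZ TKO values, in library 8, lay within the STZ floxed range, and the other 5 lay below it. Without STZ, Hibadh had 94.2, 131 and 155 CPM in TKO libraries, against 191, 204, 200.3 and 203 CPM in floxed libraries 1, 5, 9 and 19, with no overlap. For Hibadh the log2 fold change was -0.65 ± 0.21 under STZ (edgeR adjusted p = 0.0765), -0.63 ± 0.22 without STZ (adjusted p = 0.202) and -0.64 ± 0.15 in the average (adjusted p = 0.00876). Without library 8 the value under STZ was -0.90 (adjusted p = 0.00219), and without libraries 4, 15, 16 and 20 the average was -0.47 (adjusted p = 0.0831).

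Aldh6a1, methylmalonate semialdehyde dehydrogenase, had 81.4, 138 and 205 CPM in STZ TKO libraries, against 158, 221, 262, 312 and 233 CPM in STZ floxed libraries 3, 7, 14, 17 and 21, with overlap. In the TKO group it had 69.3, 138 and 161 CPM, against 171, 168, 228 and 256 CPM in floxed libraries 1, 5, 9 and 19. All 6 TKO libraries lay below all 4 floxed libraries. For Aldh6a1 the log2 fold change was -0.77 ± 0.25 under STZ (edgeR adjusted p = 0.085), -0.74 ± 0.27 without STZ (adjusted p = 0.219) and -0.75 ± 0.18 in the average (adjusted p = 0.0104). Without STZ TKO library 18 the value under STZ passed (-0.91, adjusted p = 0.0418), and without libraries 4, 15, 16 and 20 the average did not (-0.62, adjusted p = 0.0536).

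The phosphatase Ppm1k and the E1 beta subunit Bckdhb were lower in knockouts in the average. Ppm1k had 12.5, 14.5 and 21.7 CPM (lowest, median and highest) in STZ TKO libraries, against 17.4, 20.1, 31.6, 23.6 and 27 CPM in STZ floxed libraries 3, 7, 14, 17 and 21. Without STZ it had 11.4, 16.4 and 22.7 CPM in TKO libraries, against 24.1, 22, 25.5 and 44.5 CPM in floxed libraries 1, 5, 9 and 19. The groups overlapped at 1 library in each treatment, and floxed library 19 stood well above the rest. The log2 fold change of Ppm1k was -0.64 ± 0.23 under STZ (edgeR adjusted p = 0.116), -0.79 ± 0.24 without STZ (adjusted p = 0.134) and -0.71 ± 0.17 in the average (adjusted p = 0.0077). Its counts were 31 to 249 per library, among the lowest of the members.

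Bckdhb, the E1 beta subunit, had 8.69, 10.4 and 12.1 CPM in STZ TKO libraries, against 15.9, 18.4, 12.7, 12.9 and 19.3 CPM in STZ floxed libraries 3, 7, 14, 17 and 21. Those groups did not overlap. Without STZ it had 9.16, 15.1 and 19.1 CPM in TKO libraries, against 20.9, 22, 29.1 and 17.7 CPM in floxed libraries 1, 5, 9 and 19, and 1 library of TKO reached into the floxed range. The log2 fold change was -0.64 ± 0.19 under STZ (edgeR adjusted p = 0.0521), -0.62 ± 0.20 without STZ (adjusted p = 0.158) and -0.63 ± 0.14 in the average (adjusted p = 0.00461). The value under STZ passed when library 8 of STZ TKO, 17 of STZ floxed or 20 of TKO was left out (adjusted p = 0.0394, 0.04 and 0.0287).

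The other E1 subunit and the kinase did not pass. Bckdha, the E1 alpha subunit, had a log2 fold change in the average of -0.22 ± 0.15 (edgeR adjusted p = 0.43), with means of 56.8 ± 11.5 CPM in STZ TKO and 63.4 ± 14.1 in STZ floxed libraries, and 70.1 ± 19.4 in TKO and 85.3 ± 19.6 in floxed libraries. Bckdk, the kinase, had 0.05 ± 0.19 (adjusted p = 0.926), with an interval of -0.35 to 0.44 that holds a change of either sign. On the log2 scale the interval of Ppm1k (-1.06 to -0.37) ended just below that of Bckdk, and the difference between their changes was not tested. Bcat2, Ivd and Mccc1 had -0.27, -0.28 and -0.06 in the average of the knockout effects (adjusted p = 0.375, 0.211 and 0.857).

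**Figure D2:**
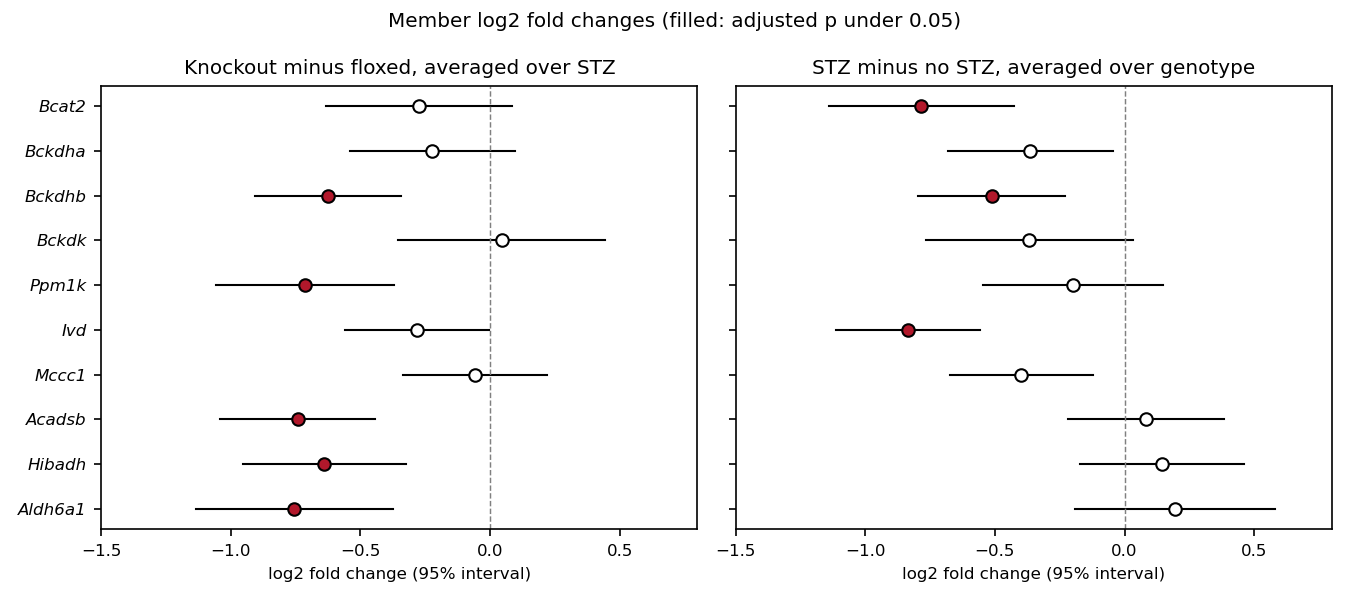
Log2 fold change of each member with its 95% interval, for knockout minus floxed averaged over STZ (left) and STZ minus no STZ averaged over genotype (right); filled points have an adjusted p under 0.05. The 5 filled points on the left are Bckdhb, Ppm1k, Acadsb, Hibadh and Aldh6a1, and the 3 on the right are Bcat2, Bckdhb and Ivd.

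Within single treatments fewer members passed. Under STZ, 1 of 10 was called, Acadsb, and 6 had an unadjusted p under 0.05, where 4.89% of all tested genes were called and 2.42% were called lower. DESeq2 and voom called 3 each, Acadsb, Hibadh and Bckdhb. With the run of library codes as a block 5 passed: besides Acadsb these were Hibadh at -0.76 (adjusted p = 0.0302), Bckdhb at -0.75 (0.025), Aldh6a1 at -0.91 (0.0114) and Bcat2 at -0.61 (0.0128). Without STZ 0 of 10 were called by edgeR, 5 had an unadjusted p under 0.05, DESeq2 called 0, limma voom 1 (Hibadh, adjusted p = 0.0448) and the run block 1 (Aldh6a1, adjusted p = 0.0465), where 0.514% of all genes were called and 0.363% were called lower. Ranges did not overlap, with the knockouts lower, for 2 members under STZ (Acadsb and Bckdhb, 2.24% of all genes) and for 2 without STZ (Hibadh and Aldh6a1, 2.61%). The members' median log2 fold change was -0.58 under STZ and -0.38 without, against 0.03 and 0.0041 over all tested genes. No member passed the test of a difference between the knockout effects: 0 of 10 by edgeR, 0 at an unadjusted p under 0.05 and 0 by DESeq2 or voom, with values from -0.53 to 0.27 and 0.0079% of all genes called. Library codes in the titles form 6 runs of consecutive numbers. Acadsb, Hibadh, Aldh6a1, Ppm1k and Bckdhb were lower in knockouts in 4 of 4 runs that held both genotypes, with STZ and again without it. So were some members that did not pass in the average: Bcat2 under STZ, and Bckdha, Ivd and Mccc1 without STZ. The runs divide the same libraries that the test used, so these counts add no independent support. The share of all tested genes with such counts was not computed.

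With STZ, the leucine enzyme Ivd, the aminotransferase Bcat2 and the subunit Bckdhb fell in the average over both genotypes, 3 of 10, where 4.54% of all tested genes were called and 2.38% were lower (edgeR). Bckdhb was also among the 5 members lower in knockouts; the other 4 did not pass for STZ. The members' median log2 fold change was -0.37, against 0.02 over all tested genes. Fibroblast markers moved with STZ too: in this average 3 of 10 fell (Col1a1, Col1a2 and Col3a1, the last lost in 10 of 21 fits that left out a library, adjusted p up to 0.0901) and none was at 0 in every library. Their sums were 786 to 5275 CPM in STZ TKO and 2246 to 8882 in TKO libraries, and 614 to 1443 in STZ floxed and 2524 to 7858 in floxed libraries, and their part in the lower member levels was not tested. This average uses the same 21 libraries as the knockout average, so the values are set side by side and not as independent results.

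Ivd, isovaleryl-CoA dehydrogenase of the leucine chain, had 82.8, 89 and 107 CPM (lowest, median and highest) in STZ TKO libraries, against 95.8, 176 and 208 CPM in TKO libraries. Only TKO library 20 lay within the STZ TKO range. In STZ floxed libraries 3, 7, 14, 17 and 21 it had 122, 128, 132, 66.9 and 112 CPM, against 203, 234, 181 and 177 CPM in floxed libraries 1, 5, 9 and 19, with no overlap. For Ivd the log2 fold change was -0.85 ± 0.18 in knockouts (edgeR adjusted p = 0.0501), -0.82 ± 0.20 in floxed mice (adjusted p = 0.0433) and -0.84 ± 0.14 in the average (adjusted p = 0.00103).

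The average for Ivd passed whichever library was left out (adjusted p at most 0.00393). The call in floxed mice was lost without any 1 of floxed 1, 5, 9 or 19, STZ floxed 7, 14, 17 or 21, TKO 2, 10 or 16, or STZ TKO 11, 12 or 15 (adjusted p up to 0.142), with the log2 fold change between -0.88 and -0.66. In knockouts Ivd passed without STZ floxed library 17 (adjusted p = 0.0145) or TKO library 20 (adjusted p = 0.00664). Ivd was lower with STZ in 5 of 5 runs of library codes in knockouts and in 3 of 3 in floxed mice. Bcat2, Bckdha and Mccc1 had the same run counts, and Bckdha and Mccc1 did not pass in the average. The share of all tested genes with such run counts was not computed.

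Bcat2, the first enzyme of the pathway, had 22.3, 28.1 and 39.4 CPM in STZ TKO libraries, against 40, 52.6 and 97.3 CPM in TKO libraries. These groups did not overlap, as was the case for 0.324% of all tested genes in this direction. In STZ floxed libraries 3, 7, 14, 17 and 21 it had 48.7, 62.8, 38.6, 31.6 and 31.6 CPM, against 61, 74.1, 72.5 and 39 CPM in floxed libraries 1, 5, 9 and 19, with overlap. The log2 fold change was -1.03 ± 0.23 in knockouts (edgeR adjusted p = 0.067), -0.53 ± 0.26 in floxed mice (adjusted p = 0.351) and -0.78 ± 0.17 in the average (adjusted p = 0.0124). In knockouts it passed without STZ TKO library 4 or 8, STZ floxed 17 or TKO 20 (adjusted p = 0.0487, 0.0418, 0.0461 and 0.0486).

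Bckdhb had a log2 fold change with STZ of -0.52 in knockouts and -0.50 in floxed mice, and -0.51 ± 0.14 in the average (edgeR adjusted p = 0.0328). That call was lost without any 1 of floxed 1, 5 or 9, STZ floxed 14 or 17, TKO 10 or 13, or STZ TKO 11 or 15 (adjusted p up to 0.0849), without a filter on low counts (adjusted p = 0.0779) and without libraries 17 and 18 (adjusted p = 0.0839). Mccc1, the biotin-carrying subunit of the carboxylase of the leucine chain, averaged 38.9 ± 5.69 CPM in STZ TKO and 48.5 ± 7.53 in TKO libraries, and 38.3 ± 10.6 in STZ floxed and 53.3 ± 7.32 in floxed libraries. Its average log2 fold change of -0.40 ± 0.13 did not pass (adjusted p = 0.0837), but did without STZ floxed library 3 or STZ TKO library 8 (adjusted p = 0.0409 and 0.0485). Bckdha and Bckdk had -0.36 and -0.37 (adjusted p = 0.161 and 0.256). Acadsb, Hibadh and Aldh6a1 had 0.08, 0.15 and 0.19 (adjusted p = 0.779, 0.601 and 0.558), the highest of the members. In floxed mice alone, edgeR called 1 of 10, Ivd, where 1.35% of all genes were called and 0.853% were lower; Ivd was also the 1 member whose STZ floxed range lay below the floxed range, as for 5.17% of all genes. In knockouts edgeR called 0 of 10, 3 had an unadjusted p under 0.05 and DESeq2 and voom called 2 each, Ivd and Bcat2, where 0.142% of all genes were called and 0.0474% were lower.

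**Figure D3:**
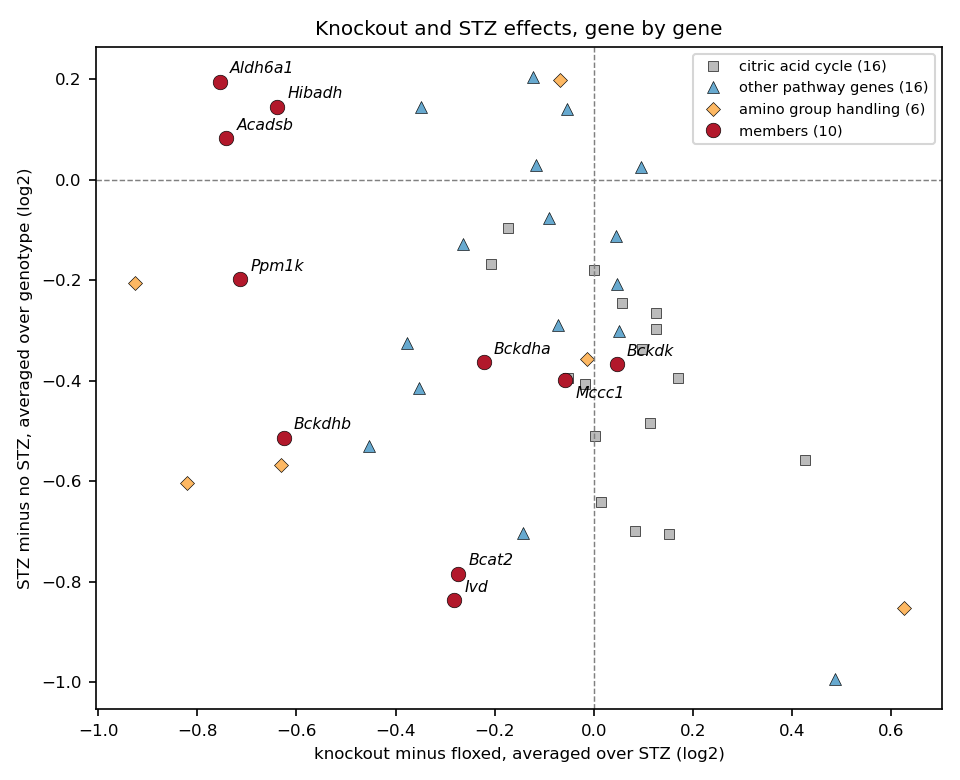
Log2 fold change of knockout minus floxed averaged over STZ (horizontal) against STZ minus no STZ averaged over genotype (vertical), 1 point per gene, for the 10 members, 16 other genes of the pathway, 6 genes of amino group handling and 16 citric acid cycle genes; both axes come from the same 21 libraries. Acadsb, Hibadh and Aldh6a1 lie at -0.75 to -0.64 on the horizontal axis and 0.08 to 0.19 on the vertical axis, and Ivd and Bcat2 lie lowest of the members on the vertical axis.

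Of the other 16 genes of the pathway, 1 fell in knockouts in the average over STZ and 15 did not pass, other enzymes of the isoleucine and valine branches among them. Of all tested genes, 4.23% fell in that average, so 1 of 16 is near the share over all genes. The 1 was Dbt, the E2 core of the dehydrogenase complex, at -0.45 ± 0.12 (edgeR adjusted p = 0.019), and the list's median was -0.10. Dbt averaged 16.8 ± 3.2 CPM in STZ TKO and 20.5 ± 3.89 in STZ floxed libraries, and 21.7 ± 3.58 in TKO and 33.2 ± 2.56 in floxed libraries. Dld, the E3 subunit that this complex shares with pyruvate dehydrogenase, had 0.09 ± 0.17 (adjusted p = 0.81), and Bcat1, the cytosolic aminotransferase, had 0.49 ± 0.40 (adjusted p = 0.515). With STZ, 2 of 16 fell in the average over genotype, where 2.38% of all tested genes fell. They were Dbt at -0.53 ± 0.12 (adjusted p = 0.0167) and Pccb, a subunit of propionyl-CoA carboxylase, at -0.70 ± 0.18 (adjusted p = 0.0252). The call of Dbt in knockouts was lost without libraries 4, 15, 16 and 20 (-0.37, adjusted p = 0.123) and without a filter on low counts (adjusted p = 0.0653), and that of Pccb without floxed library 1 or 5 (adjusted p = 0.0641 and 0.0571) or libraries 17 and 18 (adjusted p = 0.059).

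The citric acid cycle, where the carbon of the pathway ends, was compared gene by gene. Of 16 genes 0 passed in the knockout average, where 9.8% of all tested genes passed. In this list 1 had an unadjusted p under 0.05 and the median was 0.07, where the members' median was -0.45. Under STZ alone Idh3a, a subunit of isocitrate dehydrogenase, rose in knockouts (0.83 ± 0.24, edgeR adjusted p = 0.0477), a call lost without any 1 of 16 of the 21 libraries (adjusted p up to 0.109) and kept without STZ floxed 3, STZ TKO 4, 11 or 18 or TKO 20. With STZ, all 16 had a negative average and 1 passed, where 2.38% of all tested genes were called lower. It was Mdh2, mitochondrial malate dehydrogenase, at -0.70 ± 0.17 (adjusted p = 0.0213). The call of Mdh2 was lost without floxed library 1 or 5 (adjusted p = 0.055 and 0.053) or libraries 17 and 18 (adjusted p = 0.0603).

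Slc43a1, which encodes the leucine transporter LAT3 (chr2:84838850-84863594, plus strand), fell in knockouts with STZ and without it. It had 5.98, 7.86 and 13.8 CPM (lowest, median and highest) in STZ TKO libraries, against 53.3, 30.8, 38, 28.2 and 48.6 CPM in STZ floxed libraries 3, 7, 14, 17 and 21. In the TKO group it had 5.36, 6.1 and 9.58 CPM, against 27.2, 39, 24.5 and 22.2 CPM in floxed libraries 1, 5, 9 and 19. All 12 knockout libraries lay below all 9 floxed libraries, as was the case for 0.387% of all tested genes.

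The log2 fold change of Slc43a1 was -2.22 ± 0.23 under STZ (edgeR adjusted p = 2.75e-06), -2.09 ± 0.24 without STZ (adjusted p = 4.3e-05) and -2.16 ± 0.17 in the average (adjusted p = 1.68e-08). It passed in all 3 under every other setting run and whichever library was left out. The other 3 uptake genes, Slc7a5 and Slc3a2, the light and heavy chains of LAT1, and Slc7a8, which encodes LAT2, did not pass for the knockout, and Slc7a8 fell with STZ in the average (-0.72 ± 0.20, adjusted p = 0.0444). That call was lost without libraries 17 and 18 (adjusted p = 0.0813) and without any 1 of floxed 1, 5 or 9, STZ floxed 7, 14 or 17, TKO 2, 6, 10 or 20, or STZ TKO 11, 12, 15 or 18 (adjusted p up to 0.0921).

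Of 4 known regulators of the pathway or of its mitochondrial setting, 1 fell in knockouts with STZ and 1 without it. It was Klf15 both times, a Krüppel-like factor that activates Bcat2 in muscle. Of all tested genes, 2.42% were called lower in knockouts under STZ and 0.363% without STZ. Klf15 had 11.8, 16.3 and 32.4 CPM in STZ TKO libraries, against 36.5, 32.7, 27.7, 48.5 and 33.8 CPM in STZ floxed libraries 3, 7, 14, 17 and 21, and 1 STZ TKO library reached into the floxed range. In the TKO group it had 8.14, 15.2 and 18.8 CPM, against 33.1, 37, 40.8 and 23.3 CPM in floxed libraries 1, 5, 9 and 19. These groups did not overlap, as was the case for 2.61% of all tested genes in this direction. For Klf15 the log2 fold change was -0.99 ± 0.24 under STZ (edgeR adjusted p = 0.0173), -1.22 ± 0.26 without STZ (adjusted p = 0.029) and -1.10 ± 0.18 in the average (adjusted p = 0.000297). Without libraries 4, 15, 16 and 20 the values of Klf15 were -0.85 under STZ (adjusted p = 0.0701) and -0.999 without STZ (adjusted p = 0.178). The call without STZ was also lost without floxed 1, 5 or 9 or TKO 10, 16 or 20 (adjusted p up to 0.13). With STZ the average of Klf15 was 0.21 (adjusted p = 0.51).

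Ppara, a nuclear receptor of fatty acid oxidation, fell with STZ in floxed mice (-1.40 ± 0.31, edgeR adjusted p = 0.0269), with 6.86, 6.8, 9.88, 9.63 and 9.25 CPM in STZ floxed libraries 3, 7, 14, 17 and 21, against 21, 30.3, 23.9 and 15 CPM in floxed libraries 1, 5, 9 and 19. Those groups did not overlap, as was the case for 5.17% of all tested genes in this direction, and 0.853% were called lower. The call was lost without floxed 1, 5 or 9 or STZ floxed 7, 14 or 17 (adjusted p up to 0.0981). In knockouts the STZ effect on Ppara was -0.21 (adjusted p = 0.778), and the difference between these effects did not pass (1.18, adjusted p = 0.9996). Ppara also fell with STZ in the average over genotype (-0.80 ± 0.21, edgeR adjusted p = 0.0275), where 2.38% of all tested genes fell. That call was lost without floxed 1, 5 or 9 (adjusted p up to 0.0728). Ppargc1a, the coactivator PGC-1 alpha, had -0.99 ± 0.26 with STZ in floxed mice (adjusted p = 0.0611) and -0.23 in the knockout average (adjusted p = 0.486).

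Of 6 genes that handle the amino group released by BCAT2, 3 fell in the knockout average, where 4.23% of all tested genes fell. They were Glul, glutamine synthetase, at -0.93 ± 0.20 (edgeR adjusted p = 0.00417), Gpt2, mitochondrial alanine aminotransferase, at -0.82 ± 0.15 (adjusted p = 0.0012), and Got1, cytosolic aspartate aminotransferase, at -0.63 ± 0.14 (adjusted p = 0.00468). Under STZ, Glul had 130, 258 and 342 CPM (lowest, median and highest) in STZ TKO libraries, against 466, 555, 366, 751 and 589 CPM in STZ floxed libraries 3, 7, 14, 17 and 21. Every STZ TKO library lay below every STZ floxed library, as was the case for 2.24% of all tested genes (log2 fold change -1.18 ± 0.27, adjusted p = 0.0128). With STZ, 3 of 6 fell in the average over genotype, where 2.38% of all tested genes fell. They were Gpt2 (-0.60, adjusted p = 0.0258), Got1 (-0.57, adjusted p = 0.0219) and Gpt, the cytosolic alanine aminotransferase (-0.85, adjusted p = 0.0398). Each of these 3 missed the threshold without libraries 17 and 18 (adjusted p = 0.0539, 0.0539 and 0.115), and each was lost without single libraries: Gpt2 without floxed 9 (adjusted p = 0.0705), Got1 without floxed 1 or 5 (adjusted p up to 0.0588), and Gpt without any 1 of floxed 1, 5 or 9, STZ floxed 14, 17 or 21, TKO 2, 6, 10 or 16, or STZ TKO 12, 15 or 18 (adjusted p up to 0.109).

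**Figure D4:**
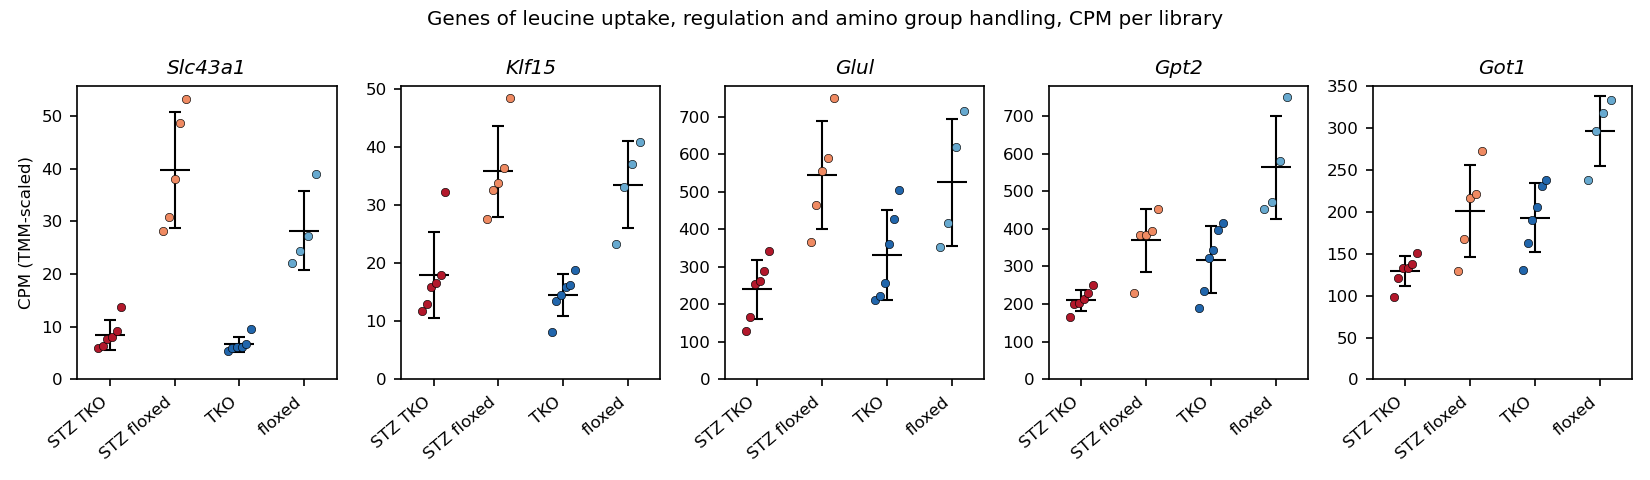
CPM of Slc43a1, Klf15, Glul, Gpt2 and Got1 in each library (points), with mean and SD as bars, in STZ TKO (6 libraries), STZ floxed (5), TKO (6) and floxed (4); each axis starts at 0. For Slc43a1 all 12 knockout libraries, up to 13.8 CPM, lie below all 9 floxed libraries, from 22.2 CPM, and for the other 4 genes the knockout means lie below the floxed means of the same treatment.

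Markers of other cell types moved with the knockout. Of 14 macrophage markers, 13 rose in knockouts in the average over STZ, with none at 0, and their summed level was 268 to 2244 CPM in STZ TKO and 193 to 287 in STZ floxed libraries, and 286 to 1756 in TKO and 175 to 232 in floxed libraries. Of 10 adipocyte markers 3 fell, with sums of 64.4 to 556 CPM in STZ TKO and 104 to 426 in STZ floxed libraries, and 116 to 248 in TKO and 153 to 315 in floxed libraries. Of 10 genes known to rise in denervated muscle 6 rose, with sums of 119.5 to 721 CPM in STZ TKO and 110 to 200 in STZ floxed libraries, and 125 to 2012 in TKO and 75.3 to 104 in floxed libraries. None of the markers in those lists was at 0 in every library. Of all 12658 tested genes, 705 rose and 4.23% fell in this average. All 3 adipocyte calls depended on single libraries: of 21 fits that left out a library, Lipe and Plin1 were lost in 8 each and Adrb3 in 1 (edgeR adjusted p up to 0.102, 0.102 and 0.266). Csf1r of the macrophage list was lost in 8 and Myog of the denervation list in 9 (adjusted p up to 0.0698 and 0.0706).

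TKO library 20 had the lowest level of the members, 539.6 CPM summed, and the highest mean level of macrophage and of denervation genes. STZ TKO libraries 11 and 12 had macrophage sums of 290.4 and 268 CPM, where the highest STZ floxed library had 287 CPM. They had 754.4 and 788.1 CPM summed over the members, below the lowest STZ floxed library at 921.4. TKO library 13 had a macrophage sum of 286 CPM, above the highest floxed library at 232 CPM. It had 942.7 CPM over the members, below the lowest floxed library at 1051. STZ TKO libraries 4 and 15 had the highest macrophage sums of their group (1718 and 2244 CPM) and its lowest member sums (569.4 and 584.9 CPM). These libraries were picked by their macrophage sums, and the part of macrophages in the member levels was not tested.

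With the mean macrophage level of each library as a covariate, an alternative chosen after seeing the data, the log2 fold changes in the knockout average were -0.42 for Acadsb, -0.34 for Hibadh, -0.26 for Aldh6a1, -0.43 for Ppm1k and -0.43 for Bckdhb (adjusted p from 0.415 to 0.782). Slc43a1 passed in that fit at -2.11 (adjusted p = 6.49e-05), while Klf15, Glul, Gpt2, Got1 and Dbt did not (adjusted p from 0.165 to 0.64). Without libraries 4, 15, 16 and 20, also chosen after seeing the data, 3 members passed in the knockout average, Acadsb, Ppm1k and Bckdhb. That set does not follow the ranking by macrophage markers. TKO library 6, which was kept, had a mean centred log2 CPM of 1.16, and library 16, which was left out, had 1.04. The macrophage level was higher in both knockout groups, so the covariate fit cannot fully tell it apart from genotype. The part of other cell types in the lower member levels was not tested beyond these values.

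**Figure D5:**
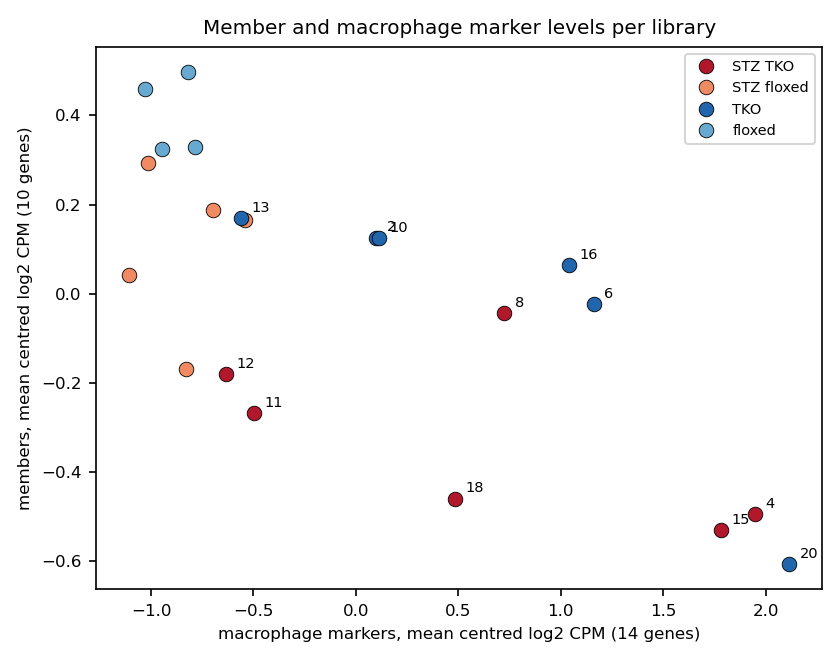
Mean of the 10 members against mean of 14 macrophage markers, each as log2 CPM centred on the gene's mean over all libraries, 1 point per library; knockout libraries carry their title numbers. Floxed and STZ floxed libraries lie together at low macrophage levels, knockout libraries spread to the right, and TKO library 20 has the lowest member level (-0.61) and the highest macrophage level (2.11).

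Most pairs of members were positively correlated over the 21 libraries. Of the 45 pairs, 39 had a positive Pearson correlation of log2 CPM, with a median of 0.52 and a range of -0.34 to 0.88. After subtraction of group means the median was 0.40, and pairs ran from -0.47 (Bcat2 with Aldh6a1) to 0.82 (Acadsb with Aldh6a1). The share of positive pairs over all tested genes was not computed. The 5 genes outside the list whose levels followed the members' mean most closely over the 21 libraries were Adhfe1 (r = 0.93), Lrrc20 (0.88), Gpt2 (0.88), Got1 (0.88) and Gpd2 (0.87). Adhfe1 encodes hydroxyacid-oxoacid transhydrogenase and Gpd2 mitochondrial glycerol-3-phosphate dehydrogenase. These correlations are descriptions: each library gives all genes their depth and group at once, and genes are not independent replicates.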

How the data were processed

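Raw read counts per Ensembl gene were deposited by the authors without normalization, in 1 table of 21 muscle libraries, prepared with a directional kit per the labels' protocols. STAR, featureCounts and build GRCm38.p4 are named in the submitters' processing notes. Not given in the sources used here are tool versions, the annotation release, how strand was set in counting and what became of multimapping reads, so antisense reads may be included. Of 46071 identifiers, 45229 matched a symbol in GENCODE M21, and the rest held 0.0478% of counts.

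Counts were tested with edgeR 4.0.16 in R 4.3.3 (TMM, filterByExpr, robust quasi-likelihood fit of 4 group means to all 21 libraries, two-sided, Benjamini-Hochberg over 12658 genes per contrast, threshold 0.05; biological coefficient of variation 0.325). Averaged effects are the mean of both single-treatment or single-genotype effects. CPM and RPKM use TMM-scaled library sizes, and centred log2 CPM a prior count of 2. The fit was tested on simulated data. Every pair of libraries differed by more than sampling noise (chi-square over degrees of freedom of 8.61 or more).

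Alternatives were RLE scaling, DESeq2 1.42.0, limma 3.58.1 voom with quality weights, no filter, only the groups compared, the run of library codes as a block, each library left out, and, for levels, raw library size. Added after seeing the data were fits without libraries 4, 15, 16 and 20, without 17 and 18, and with the macrophage level as covariate. After subtraction of group means, libraries of the same code run had a mean correlation of 0.201, against -0.0823 between runs; the labels do not call runs batches.

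The members and all lists were chosen with earlier results of these data known. Named genes are the members; Dbt, Dld, Bcat1, Klf15 and Ppargc1a; genes of the other pathway, regulator, uptake, amino group and citric acid cycle lists past the threshold; and the 5 genes most correlated with the members' mean, among those with mean log2 CPM of at least 2 that are no predicted models. Marker lists are given as summed levels, and the endothelial list only as counts: in the knockout average 2 of 10 fibroblast markers rose and 1 of 10 endothelial markers fell, and in the STZ average 3 and 1 fell. The fibroblast call of Mfap5 for the knockout was lost in 6 of 21 fits without 1 library (edgeR adjusted p up to 0.0659). Tie1, the endothelial call in both averages, was lost in 4 for the knockout and 10 for STZ (adjusted p up to 0.0699 and 0.0994). Of all 12658 tested genes, 705 rose and 4.23% fell in the knockout average, and 2.38% fell in the STZ average.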

Additional observations from a re-analysis of the deposited data

Results flagged for a closer look

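Ivd in STZ floxed library 17 stood apart from its group at 66.9 CPM, where the other 4 STZ floxed libraries had 112 to 132 CPM. On log2 CPM its gap to the nearest library was 0.764 of the group's range, above Dixon's 95% limit of 0.71 for 5 libraries, and it was the 1 such case in 40 sets of values (10 members in 4 groups), where chance gives about 1 in 20. The result depends on the scale: on CPM the ratio for Ivd was 0.70, under the limit, and 2 values of Ppm1k were above theirs, 21.7 CPM in STZ TKO library 12 (ratio 0.653) and 44.5 CPM in floxed library 19 (ratio 0.845). Without library 17 the log2 fold change of Ivd with STZ in floxed mice was -0.66 (edgeR adjusted p = 0.107). The same library had the lowest summed muscle fibre markers of all 21, at 65082 CPM; the part of this in the Ivd value was not tested.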

How the results depend on the processing

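No paired analysis was possible because the title numbers 1 to 21 are unique and pair no libraries by replicate number; a block on the runs of library codes was fitted in its place. Members called, by setting: for the knockout under STZ, 3 with DESeq2, 3 with voom, 5 with the run block and 0 with the macrophage covariate, against 1, and 1 to 3 when a library was left out; without STZ, 1 with voom and 1 with the run block, against 0, and 0 to 0; in the knockout average, 0 with the covariate and 3 without libraries 4, 15, 16 and 20, against 5, and 5 to 5, the same genes. For STZ in floxed mice, 0 were called with no filter, 0 with only the groups compared and 0 without libraries 17 and 18, against 1, and 0 to 1; in knockouts, 1 with RLE, 1 with no filter, 1 with the covariate, 1 without libraries 17 and 18, and 2 each with DESeq2, voom and the run block, against 0, and 0 to 2; in the STZ average, 5 with voom, 4 with the run block, 2 with no filter and 2 without libraries 17 and 18, against 3, and 2 to 4. The interaction called 0 in every setting. On raw library sizes the members' sum in floxed libraries was 1030 CPM.

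Signs turned only where the member had not passed in that same contrast. Knockout under STZ: Mccc1 -0.051 (run block), -0.060 (voom) and -0.062 (without 17 and 18), and Bckdha 0.076 (covariate). Knockout without STZ: Bcat2 3.48e-05 (RLE), 0.057 (run block), 0.0048 (only the groups compared) and 0.18 (without 4, 15, 16 and 20), and Bckdk 0.085 (run block), 0.14 (without 4, 15, 16 and 20) and 0.15 (covariate). Knockout average: Bckdk -0.019 (voom), Mccc1 0.0024 (without 4, 15, 16 and 20) and 0.030 (covariate), and Bckdha 0.015 (covariate). STZ in knockouts with voom: Hibadh -0.10 and Aldh6a1 -0.0034. STZ average with voom: Acadsb -0.036. With a library left out, ranges crossing 0 were Mccc1 -0.14 to 0.13 and Bckdk -0.0060 to 0.41 (knockout under STZ), Bcat2 -0.19 to 0.089 and Bckdk -0.19 to 0.036 (without STZ), Mccc1 -0.13 to 0.0097 and Bckdk -0.037 to 0.18 (average), Ppm1k -0.40 to 0.0065 (STZ in floxed mice) and Hibadh -0.11 to 0.24 (STZ in knockouts). Over up to 9 other settings, all genes called numbered 226 to 1068 for the knockout under STZ (619 as reported), 18 to 347 without STZ (65), 133 to 1796 in the knockout average (1240), 121 to 770 for STZ in floxed mice (171), 4 to 112 in knockouts (18), 312 to 1439 in the STZ average (575) and 0 to 4 for the interaction (1). The causes were not tested. Bckdhb and Ppm1k had the fewest counts, from 37 and 31 per library.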
